A study of Mus musculus with 2 samples.

Results

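The immediate-early and heat shock genes are 35 mouse genes named by symbol, out of 24866 genes in the deposited table of single-cell counts. All 35 were in the table and had at least 1 count in the wells used. They comprise 11 AP-1 and Egr transcription factor genes, 15 other immediate-early genes and 9 heat shock genes, and the first of these sets is kept apart from the heat shock set throughout. They were measured in single cells sorted by flow cytometry from collagenase-digested femurs of 2 C57/B6 littermates at postnatal day 6, 1 plate per animal. Both animals were CTSK-cre+ mTMG, and every sorted cell was positive for the CTSK-mGFP reporter. Cre was driven by the cathepsin K gene (CTSK), so the membrane GFP marks cells that express or once expressed Cre, not only cells that make cathepsin K at the time of sorting. No reporter-negative cell, no other genotype and no undigested tissue was analysed here. The comparisons therefore run between kinds of cell, animals and plate quadrants within the reporter-positive population, and levels in the intact bone were not measured.

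Immediate-early genes are transcribed within minutes of a growth factor, mechanical or stress signal, without new protein synthesis, because factors such as SRF and CREB already sit at their promoters. Many encode transcription factors, among them the Fos and Jun proteins that pair to form AP-1, and the Egr zinc finger factors, while others encode feedback regulators that degrade mRNA or dephosphorylate MAP kinases and so end the response. Heat shock genes encode chaperones and their co-chaperones and are induced by heat shock factor 1 when proteins unfold. In the skeleton AP-1 proteins are known regulators of chondrocytes, osteoblasts and osteoclasts.

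The promoters of 5 genes are shown: those of Fos, Junb and Zfp36 because these genes were called in the tests described here, and those of Hspa1a and Hspa1b because the 2 genes are near-identical copies. Each sequence is the stretch of 250 bases upstream of the start site in the RefSeq promoter table (build GRCm38.p6), read 5′ to 3′ on the gene's strand. Capitals mark matches to a searched motif. For Fos (chr12:85473640-85473889, plus strand) and Junb (chr8:84978749-84978998, minus strand) they mark TGACG, the core of the CREB and ATF recognition site. For Zfp36 (chr7:28379229-28379478, minus strand) they mark a CArG box, the site that SRF recognises. For Hspa1a (chr17:34972157-34972406, minus strand) and Hspa1b (chr17:34959239-34959488, minus strand) they mark GAANNTTC, inverted repeats of the heat shock element.
Fos: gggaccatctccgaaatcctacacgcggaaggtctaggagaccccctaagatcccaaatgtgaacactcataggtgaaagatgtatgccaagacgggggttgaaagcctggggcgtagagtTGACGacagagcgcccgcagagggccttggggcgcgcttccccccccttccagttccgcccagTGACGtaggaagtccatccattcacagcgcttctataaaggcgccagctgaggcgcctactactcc
Junb: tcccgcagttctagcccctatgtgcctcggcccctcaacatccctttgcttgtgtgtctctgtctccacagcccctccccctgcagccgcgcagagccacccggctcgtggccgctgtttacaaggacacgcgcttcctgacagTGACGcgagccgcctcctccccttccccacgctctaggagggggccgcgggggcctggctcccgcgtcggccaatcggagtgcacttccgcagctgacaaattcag
Zfp36: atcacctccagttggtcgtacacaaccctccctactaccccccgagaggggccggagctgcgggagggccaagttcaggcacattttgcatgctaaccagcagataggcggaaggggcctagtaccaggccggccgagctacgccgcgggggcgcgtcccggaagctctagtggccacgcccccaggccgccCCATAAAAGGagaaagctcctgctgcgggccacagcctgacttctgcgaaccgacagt
Hspa1a: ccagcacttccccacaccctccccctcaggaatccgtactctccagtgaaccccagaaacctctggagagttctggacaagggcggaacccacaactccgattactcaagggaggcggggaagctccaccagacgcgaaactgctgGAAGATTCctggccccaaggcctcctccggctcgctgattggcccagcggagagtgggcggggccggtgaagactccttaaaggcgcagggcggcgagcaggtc
Hspa1b: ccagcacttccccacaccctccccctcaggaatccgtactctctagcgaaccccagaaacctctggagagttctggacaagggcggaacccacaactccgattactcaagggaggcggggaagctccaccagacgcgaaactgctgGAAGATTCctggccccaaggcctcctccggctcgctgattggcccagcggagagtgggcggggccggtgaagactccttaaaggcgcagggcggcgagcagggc
In Fos the matches began 129 and 66 bases upstream of the start, in Junb 106, in Zfp36 58 and in both Hspa1 genes 104. The Hspa1a and Hspa1b stretches were identical at 247 of 250 positions. Of the 35 genes, 27 had an entry in the table, with 36 promoters in all. On either strand, TGACG was found in 15 of those 36 promoters, from 12 genes, and in 17.8% of all 32851 promoters of the same length. The CArG box was found in 5 of the 36, all of Egr2 or Zfp36, and in 1.47% of all promoters. GAANNTTC was found in 5 of the 36 (1 each of Dnaja1, Fosl2, Hspa1a, Hspa1b and Jun) and in 6.69% of all, TTCNNGAA in 4 and 7.17%, and TGANTCA, the AP-1 site, in 1 and 6.75%. The pair of heat shock motifs can overlap each other by 3 bases, and a match is a run of letters, not a site shown to be bound. Ier2 and Egr1 have no sequence shown.

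After removal of 5 wells with over 20% mitochondrial counts or under 500 detected genes, 318 wells of animal 1 and 335 of animal 2 remained, with 9767 to 675621 counts each and 35542100 and 42280920 counts in all. The wells were divided into 8 classes by the expression of marker genes alone, none of which is among the 35. Classes 1 (chondrocyte-like, 181 wells), 4 (tendon and ligament-like, 74), 6 (osteoblast-like, 30), 7 (periosteal fibroblast-like, 30) and 8 (pericyte and smooth muscle-like, 17) met a naming rule. Class 2 (135 wells, led by Abca8a, Ccl11 and Cxcl12) raised both periosteal fibroblast and marrow stromal markers, class 3 (130 wells, led by Crabp1, Megf6 and Tnn) met no list, and class 5 (56 wells, led by Cytl1 and Prg4) raised only 2 of 5 articular markers, so these stay unnamed. Arc, an immediate-early gene that is not among the 35, was itself among the 10 leading genes of class 5. Class 8 had 4 wells in animal 2 and was not tested. Median mitochondrial share ranged from 1.78% to 4.36% and median genes per well from 1951 to 2884 over classes and animals. In the tested classes, the summed markers of other cell types (osteoclast, endothelial, blood, Schwann and muscle lists, 43 of the 44 genes found in the table having a count and only Calcr at 0) ran from 0 to 170.0 CPM (counts scaled to the library total, the unit of every level here) per list.

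The 35 genes took 1.11% of all counts in animal 1 and 1.44% in animal 2. In this text a pair of values joined by "and" is animal 1 and then animal 2, each from counts summed over the wells of a class and scaled to CPM. The AP-1 and Egr genes together had 4779 and 6313 CPM over all wells, the other immediate-early genes 3735 and 5197, and the heat shock genes 2586 and 2869. All 3 sums were higher in animal 2, the heat shock sum by the smallest ratio. Animal and plate cannot be told apart, and with 1 plate each the difference has no test. Within the sums, Fos contributed 45.9% of the AP-1 and Egr counts, Egr1 21.6% and Junb 16%. Ier2 (25.4%) and Zfp36 (16.9%) led the other immediate-early counts, and Hspa8 (30.7%), Hsp90ab1 (28.2%), Hspa1a (13.3%) and Dnajb1 (9.96%) the heat shock counts. These are shares of counts, not of transcripts per length.

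By the mean of the 2 animals, the summed AP-1 and Egr level was highest in class 5 and in the chondrocyte-like class 1. Among the tested classes it was lowest on average in the tendon and ligament-like class 4 and the periosteal fibroblast-like class 7. In animal 2 class 6, at 8095 CPM, was slightly above class 5. In class 5 the AP-1 and Egr sum was 8678 and 8035 CPM, against 4213 and 5569 CPM as the mean of the other classes. In class 1 it was 6787 and 8810.0 CPM, against 4529 and 5440.1 CPM in the others. The ranges of classes 1 and 5 overlap, so their order was not resolved. The sum was 3655 and 3163 CPM in class 4 and 3259.8 and 3985 CPM in class 7, where the means of the other classes were 5051 and 6381 CPM and 5117 and 6244 CPM. As a log2 ratio to the mean of the other classes (mean ± SD, n = 2 animals, no test) this came to 0.79 ± 0.36 in class 5, 0.64 ± 0.08 in class 1, -0.74 ± 0.39 in class 4 and -0.65 ± 0.00 in class 7. Classes 2 and 3 had 3944 and 3994 CPM and 3347 and 5369 CPM, below the mean of the others in both animals, at -0.49 ± 0.21 and -0.39 ± 0.31. The osteoblast-like class 6 differed between the animals, with 4288 and 8095 CPM, 1 value below and 1 above the mean of the others. The pericyte and smooth muscle-like class 8, with few wells, had 2192 and 3490.3 CPM.

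By the mean of the 2 animals, the heat shock sum was likewise highest in classes 5 and 1 and lowest in class 4. In animal 2 alone class 6, at 3599.9 CPM, was above both classes 5 and 1. The sum was 4086 and 3529.8 CPM in class 5, against 2290.0 and 2611 CPM in the other classes, and 3633 and 3495 CPM in class 1, against 2366 and 2617 CPM. Class 4 was the lowest, at 1597 and 1413 CPM against 2705 and 2964 CPM. The log2 ratios were 0.64 ± 0.28, 0.52 ± 0.14 and -0.91 ± 0.22. Class 7 had 2056 and 2054 CPM (-0.42 ± 0.09), class 2 2138 and 2379 CPM (-0.26 ± 0.04), class 3 1976 and 2727 CPM (-0.21 ± 0.29) and class 6 2341 and 3599.9 CPM (0.16 ± 0.43). The other immediate-early genes had 6769 and 6905 CPM in class 5 (0.76 ± 0.25), 4711 and 7133 CPM in class 1 (0.46 ± 0.26), 4573 and 7229.7 CPM in class 6 (0.44 ± 0.31) and 2821 and 2841 CPM in class 4 (-0.74 ± 0.23). For this set class 6 was above the mean of the other classes in both animals, which it was not for the AP-1 and Egr or the heat shock set.

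**Figure D1:**
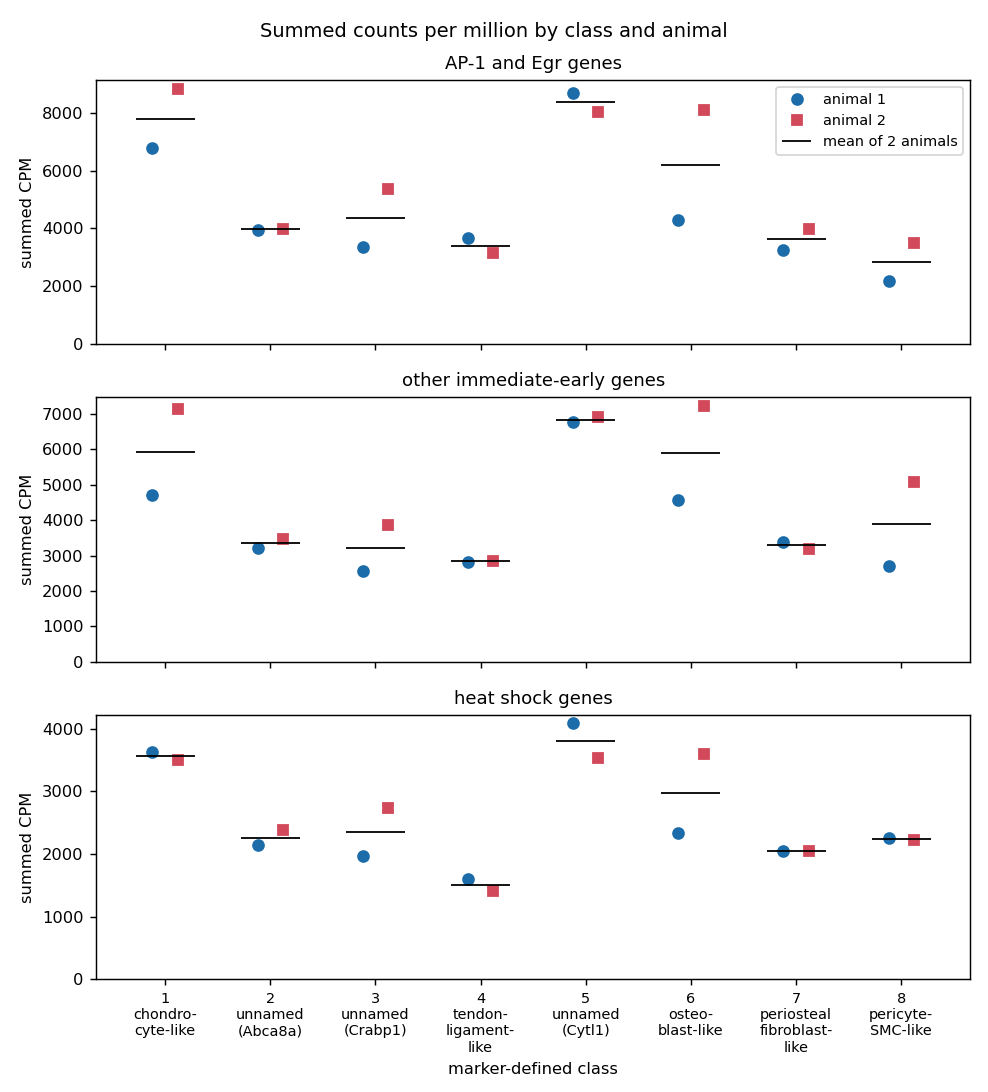
Summed CPM (y axis, from 0) of the AP-1 and Egr, other immediate-early and heat shock genes in each of the 8 classes (x axis), 1 point per animal with the mean of the 2 animals as a bar. By the mean of the 2 animals, classes 1 and 5 stand highest in the AP-1 and Egr and heat shock panels. Class 6 lies far apart between the animals, at 4288 and 8095 CPM for the AP-1 and Egr genes, and in animal 2 lies above class 5 in both panels.

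Chondrocyte marker genes were highest in classes 1, 5 and 6, not in the order of the sums. Their summed level was 30281 and 24946 CPM in class 1, 10644 and 13640.2 CPM in class 5 and 7051 and 10549 CPM in class 6, against 2351 and 4275 CPM in class 3, 2219.7 and 2099 CPM in class 4, 244 and 188 CPM in class 2 and 90.4 and 103 CPM in class 7. Class 4, with the lowest heat shock sum, held more of these markers than classes 2 and 7, and class 5 held fewer than class 1. All 13 markers entered the sum, and 10 of them were raised in class 1. Their part in the differences between classes was not tested.

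Each gene was then compared between a class and the mean of the other tested classes, over 14 libraries (7 classes in each of 2 animals). The test was edgeR's quasi-likelihood test, with p-values adjusted by Benjamini-Hochberg over 13435 genes. For the fold change the other classes were averaged on the log scale after TMM scaling, whereas the CPM printed for the other classes are plain means. A fold change can therefore differ from the ratio of the printed CPM. Of the 35 genes 34 passed the filter on low counts, and Egr3, with 1 count in all, did not. The p-values rest on how far class differences vary between the 2 animals (n = 2) once the animal difference is removed. This spread is pooled over the 7 classes, with 6 residual degrees of freedom. A test of any difference between classes called 4 of the 34 (Dnajb1, Ier2, Junb and Zfp36), where 1.27% of all genes were called. Their adjusted p from edgeR were 0.0018 for Ier2, 0.00602 for Zfp36, 0.0206 for Dnajb1 and 0.0363 for Junb. Egr1 (0.0652) and Fos (0.086) missed the threshold of 0.05. Across all genes the median log2 fold change was 0.39 in class 1, 0.46 in class 2, 0.32 in class 3 and 0.08 in class 4. It was -0.07 in class 5, -0.15 in class 6 and -0.34 in class 7. Classes 4 to 7, with fewer wells, had lower medians than classes 1 to 3. In wells thinned to 10000 counts the medians were 0.25, 0.31, 0.27, 0.12, 0.04, -0.09 and -0.14 in classes 1 to 7. Fold changes are set beside the medians below, but whether these suit genes with many counts was not tested.

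In class 1, 3 of 34 genes were higher (Ier2, Zfp36 and Dnajb1) and none lower, where 0.275% of all genes were higher and 0.112% lower. In class 5, 2 of 34 were higher (Ier2 and Zfp36), where 0.141% of all genes were. Class 7 had 4 of 34 lower (Fos, Gadd45b, Ier2 and Zfp36), where 1.51% of all genes were lower. Class 2 had 1 of 34 lower, where 0.171% were, and class 4 had 1 of 34 lower, where 0.0447% were, in both cases Ier2. No gene of the 34 was called in class 3 or class 6, where 0.0298% and 0.61% of all genes were called in either direction. At an unadjusted p below 0.05 edgeR gave 3 of 34 in class 3 and 6 in class 6, where 7.42% and 11.7% of all genes passed, DESeq2 called 0 and 5, where it called 0.577% and 8.4% of all genes, and limma 0 and 2, where it called 0% and 2.13%. The median log2 fold change of the AP-1 and Egr genes (10 tested) was 0.88 in class 1, 0.39 in class 5, -0.61 in class 4 and -0.56 in class 7. That of the 9 heat shock genes was 0.94, 0.70, -0.71 and -0.33 in the same classes. In classes 2, 3 and 6 the medians were -0.26, -0.28 and 0.29 for the AP-1 and Egr genes. For the heat shock genes they were -0.28, -0.02 and 0.27. In class 1, 9 of 10 AP-1 and Egr genes, 9 of 15 other immediate-early genes and 8 of 9 heat shock genes lay above the median of all genes, and in class 4 the counts were 0 of 10, 3 of 15 and 0 of 9. In the same order they were 9, 12 and 8 in class 6 and 6, 10 and 7 in class 5. Class 2 had 1, 2 and 2, class 3 had 1, 2 and 1, and class 7 had 4, 6 and 5. Over all 34 genes, 26, 5, 4, 3, 23, 29 and 15 lay above the median in classes 1 to 7. Above 0 instead, the counts were 30, 12, 12, 5, 22, 24 and 11. With DESeq2's size factors in place of TMM scaling, the calls over all genes were 24 higher and 17 lower in class 1 and 200 higher and 143 lower in class 7, where TMM gave 37 and 15, and 166 and 203.

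DESeq2, and edgeR on thinned wells, called more of the genes over the classes as a whole, and more of all genes. DESeq2, which gave 33 of the 35 an adjusted p, called Dnajb1, Egr1, Fos, Ier2, Junb and Zfp36 higher in class 1 (1.44% of all genes higher), and Ier2 and Zfp36 lower in class 2 (1.22% lower). In class 4 it called Dnajb1, Fosb, Hspa1a, Ier2, Junb and Zfp36 lower (1.7% lower). In class 5 it called Dnajb1, Egr1, Fos, Hspa1a, Hspa8, Ier2, Junb and Zfp36 higher (1.49% higher), and in class 6 Dnajb1, Gadd45b, Gadd45g, Ier2 and Zfp36 higher (2.65% higher). Class 7 had Egr1, Egr2, Fos, Gadd45b, Ier2, Myc and Zfp36 lower by DESeq2, where 8.5% of all genes were. With every well thinned to 10000 counts before edgeR, 10 genes were higher in class 1 (the 6 that DESeq2 called, with Btg2, Fosb, Gadd45b and Hspa1a), where 3.03% of all genes were, and Dusp1 and Zfp36l1 were lower (0.988% lower). The thinned wells had Egr1, Fos, Ier2 and Zfp36 lower in class 2 (0.614% lower) and Dnajb1, Hspa1a, Ier2 and Junb lower in class 4 (0.36% lower). They had Dnajb1, Egr1, Hspa1a, Ier2, Junb and Zfp36 higher in class 5 (1.07% higher) and Dnajb1, Fos, Gadd45b, Hspa1b, Ier2, Junb and Zfp36 higher in class 6 (1.86% higher). In class 7 they had Fos, Gadd45b, Hspa1a, Ier2, Junb, Myc and Zfp36 lower (3.26% lower) and Klf4 higher (3.64% higher).

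**Figure D2:**
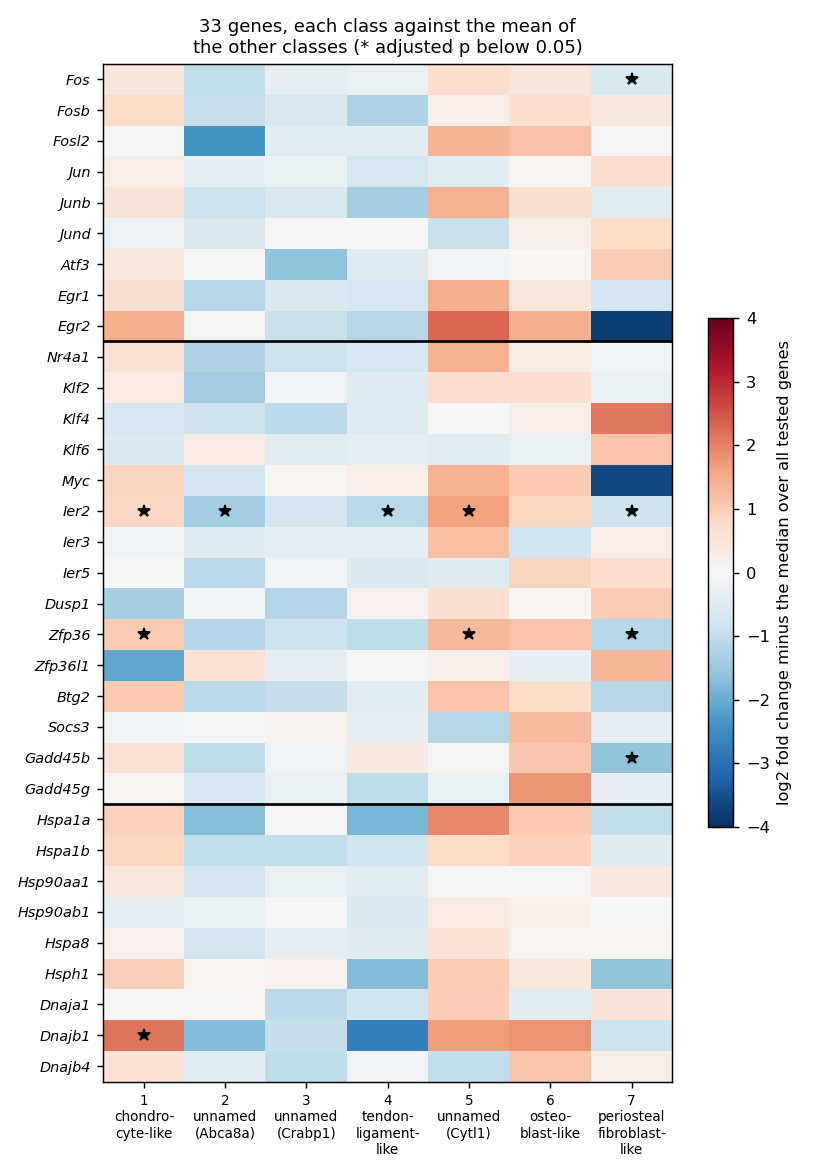
Log2 fold change of each class (columns) against the mean of the other tested classes, less the median over all tested genes of that class, for 33 genes (rows; lines part the AP-1 and Egr, other immediate-early and heat shock sets). Fosl1, with counts in 7 wells, and Egr3 are left out. Stars mark adjusted p below 0.05 in edgeR. Ier2 carries a star in 5 classes, and Klf4, Zfp36l1 and Dusp1, which carry none, lie above 0 in class 7.

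Among the AP-1 subunits, edgeR called Fos in class 7 and no other subunit in any single class. Fos had 1183 and 1713 CPM in class 7, against 2324 and 2880.3 CPM in the other classes. Class 7 was the lowest of the tested classes in both animals, and the share of all genes for which this held was not counted. The log2 fold change was -0.95 ± 0.21 (SE) with an adjusted p of 0.0458 from edgeR. The call held in 9 of 13 tested alternatives (adjusted p 1.21e-04 to 0.108), and it was lost with DESeq2's size factors, without the replicate block, and without quadrant 2 or quadrant 4 of animal 2's plate. DESeq2 and the thinned wells also called Fos higher in class 1, as above. At the other end Fos had 3105 and 4012 CPM in class 1, 3427 and 3273 CPM in class 5 and 1957 and 3810.0 CPM in class 6. Class 6 again lay apart between the animals.

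Junb, a Jun protein whose complexes often act more weakly than those of Jun itself, had 1904 and 1516 CPM in class 5, 1075 and 1396 CPM in class 1 and 654 and 1517 CPM in class 6. In class 4 it had 316 and 366 CPM. Its edgeR call was for a difference between any classes, and its adjusted p from edgeR in class 5 alone was 0.0502. Fosb, which encodes a Fos paralog, had 347 and 455 CPM in class 1 and 116 and 86.8 CPM in class 4. Jun had 365 and 601 CPM in class 1, 354 and 587 CPM in class 7 and 164 and 289 CPM in class 4, with classes 1 and 7 close together in both animals. Jund, the Jun gene known for its steady expression, had 21.6 to 81.5 CPM over the 14 libraries. Fosl2, which encodes a Fos-related AP-1 subunit, had 37.1 and 27.9 CPM over all wells. Atf3, a stress-induced partner of Jun proteins, had 134 and 291 CPM in class 7 and 114 and 288 CPM in class 1, with animal 2 far above animal 1 in each. Fosl1 had 151 counts in 7 wells and is not read.

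Egr1, the zinc finger factor induced alongside Fos, had 2632 and 2238 CPM in class 5 and 1615 and 1892 CPM in class 1, against 774 and 585 CPM in class 4 and 701 and 491 CPM in class 7. Its values in classes 1 and 5 were above those of classes 2, 4 and 7 in both animals, a split chosen from these values. The share of all genes that split so was not counted. Its adjusted p from edgeR was 0.0835 in class 5, 0.0974 in class 7 and 0.147 in class 1. DESeq2 called it in these 3 classes, and the thinned wells called it higher in classes 1 and 5. Egr2 had 133 and 102 CPM in class 5 and 87.9 and 77.3 CPM in class 1. In class 7 Egr2 had 7.96 and 0 CPM, from 1 well of 30.

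Ier2, a small nuclear protein of the immediate-early response, was called in 5 of the 7 tested classes. It had 2312 and 2345 CPM in class 5, against 745 and 1067 CPM in the other classes, a log2 fold change of 1.54 ± 0.13 with an adjusted p of 0.00238 from edgeR. In class 1 it had 1327 and 2234 CPM, against 909 and 1085 CPM (1.22 ± 0.13, adjusted p 0.00617 from edgeR). In class 7 it had 475 and 509 CPM, against 1051 and 1373 CPM (-1.17 ± 0.16, adjusted p 0.00775 from edgeR). Classes 1, 5 and 6 had 1239 CPM or more in each animal, whereas classes 2, 3, 4 and 7 had 889 CPM or less, so these libraries did not overlap. This split of the classes, given below for Zfp36 and Dnajb1 too, was chosen from these values. The share of all genes that split the same way was not counted. The class 5 call held in 14 of 16 tested alternatives (adjusted p 2.90e-13 to 0.0622), the class 1 call in 15 of 17 tested alternatives (adjusted p 3.21e-06 to 0.0884) and the class 7 call in 13 of 13 tested alternatives (adjusted p 2.19e-05 to 0.0389). Leaving out quadrant 1 of animal 1's plate ended the calls in classes 1 and 5. Leaving out its quadrant 2 ended the class 1 call, and giving each well to its highest marker score ended the class 5 call. Class 7 could not be tested in any of these settings, or at the lower Leiden resolution. Its 13 of 13 therefore does not cover the settings that ended the other calls. The same limit holds for the class 7 counts of Fos, Zfp36 and Gadd45b.

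In classes 2 and 4 Ier2 was lower by a narrow margin. It had 532 and 593 CPM in class 2, against 1041 and 1359 CPM (-0.89 ± 0.16, adjusted p 0.0499 from edgeR), and 390.2 and 556 CPM in class 4, against 1065 and 1365 CPM (-0.996 ± 0.16, adjusted p 0.0479 from edgeR). The calls held in 5 of 17 tested alternatives (adjusted p 2.21e-04 to 0.375) for class 2 and 6 of 16 tested alternatives (adjusted p 6.76e-05 to 0.961) for class 4. Leaving out any quadrant but quadrant 2 of animal 1's plate ended the class 2 call, and leaving out any quadrant but quadrant 2 of either plate ended the class 4 call. Class 3 had 505 and 889 CPM and class 6 1239 and 1620.0 CPM, and neither passed edgeR's test, while DESeq2, limma and the thinned wells called class 6 higher.

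**Figure D3:**
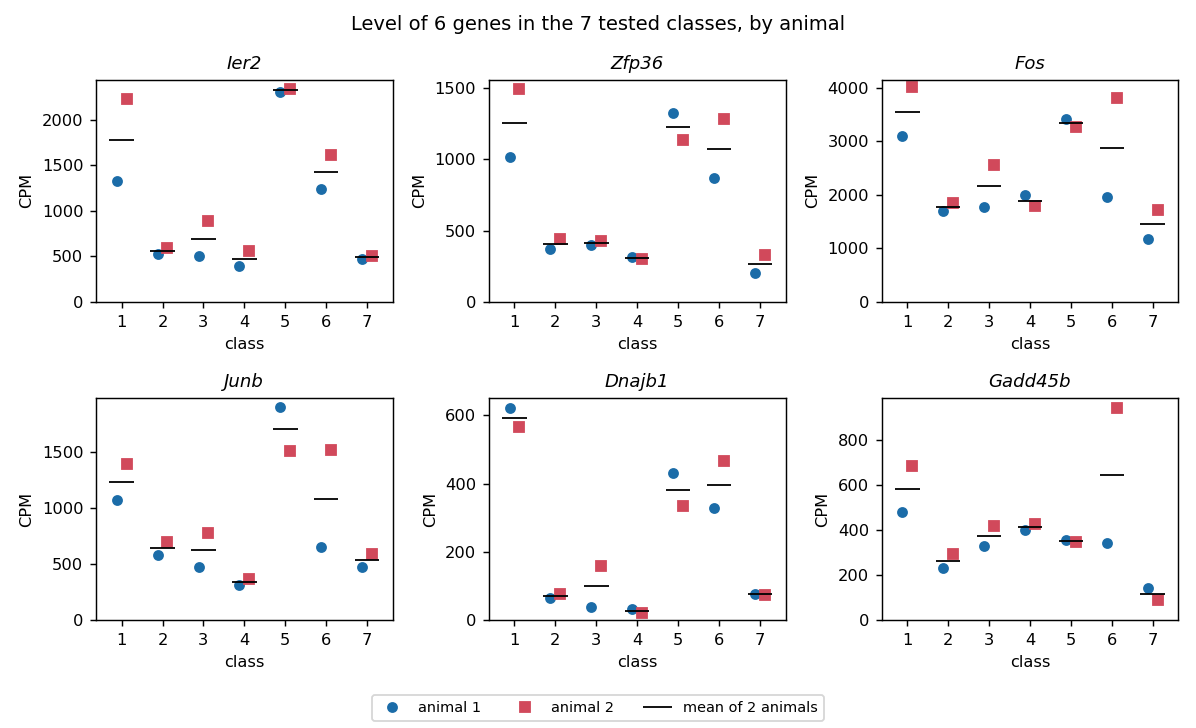
Level in CPM (y axes, from 0) of 6 genes in the 7 tested classes (x axes), 1 point per animal with the mean of the 2 animals as a bar. For Ier2, Zfp36 and Dnajb1 both animals of classes 1, 5 and 6 lie above every library of classes 2, 3, 4 and 7, for Fos and Junb animal 1 of class 6 does not, and Gadd45b is lowest in class 7 at 144 and 90 CPM. The split was chosen from these values, and its share over all genes was not counted.

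Of the feedback and RNA decay regulators, Zfp36 was higher in classes 1 and 5 and lower in class 7. Zfp36 encodes tristetraprolin, which binds AU-rich elements and speeds decay of cytokine and immediate-early mRNAs. It had 1014 and 1492 CPM in class 1, against 579 and 652 CPM in the other classes (1.40 ± 0.18, adjusted p 0.0139 from edgeR). Class 5 had 1324 and 1133 CPM, against 527 and 712 CPM (1.22 ± 0.18, adjusted p 0.0406 from edgeR). Class 7 had 205 and 328 CPM, against 714 and 846 CPM (-1.47 ± 0.22, adjusted p 0.00956 from edgeR). Libraries of classes 1, 5 and 6 were at 866 CPM or more and those of classes 2, 3, 4 and 7 at 442 CPM or less. The calls held in 13 of 17 tested alternatives (adjusted p 2.70e-06 to 0.103) for class 1, 8 of 16 tested alternatives (adjusted p 3.97e-06 to 0.832) for class 5 and 12 of 13 tested alternatives (adjusted p 1.09e-06 to 0.0734) for class 7. The class 7 call was lost without quadrant 4 of animal 2's plate, and the class 1 call without that quadrant, without quadrant 1 or 3 of animal 1's plate, or with limma. The class 5 call was lost without the replicate block, at Leiden resolution 1.5, with the highest marker score, and without any of quadrants 1, 2 and 3 of animal 1's plate or 2 and 4 of animal 2's plate.

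Zfp36l1, a paralog with the same kind of RNA-binding domain, had its lowest level in class 1. It had 209 and 233 CPM in class 7 and 198 and 243 CPM in class 2, against 40.6 and 36.5 CPM in class 1. Dusp1, a phosphatase that switches off MAP kinases, had 924 and 636 CPM in class 7 and 206 and 305 CPM in class 1. For both genes class 1 lay below class 7 in both animals. Neither passed edgeR's test in a class (lowest adjusted p 0.119 for Zfp36l1 and 0.228 for Dusp1), while DESeq2 called both lower in class 1 and higher in class 7, where it called 2.3% of all genes lower and 4.92% higher. Btg2, an antiproliferative factor, had 311 and 519.5 CPM in class 1 and 49.2 and 127 CPM in class 7. Socs3, an inhibitor of cytokine receptor signalling, was highest in class 6 at 113 and 209.6 CPM and lowest in class 5 at 37 and 43.3 CPM.

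Gadd45b was lower in class 7. Its product, like that of Gadd45g, activates stress kinase signalling. It had 144 and 90 CPM in class 7, against 357 and 519.5 CPM in the other classes. Every other tested class was above class 7 in both animals, and the share of all genes for which this held was not counted. The log2 fold change was -1.95 ± 0.36 with an adjusted p of 0.0223 from edgeR. The call held in 13 of 13 tested alternatives (adjusted p 4.91e-06 to 0.0421). These do not include the settings named for Ier2 in which class 7 could not be tested. In class 7, 24.4% of its counts came from 1 well. Gadd45g was highest in the osteoblast-like class 6, at 487 and 722 CPM, against 189.7 and 200.2 CPM in the other classes, and did not pass the test (adjusted p 0.222 from edgeR).

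The inducible transcription factors outside AP-1 and Egr did not share 1 order. Nr4a1, an orphan nuclear receptor, had 353 and 338 CPM in class 5 and 212 and 297 CPM in class 1, against 115 and 178 CPM as the mean of the classes other than 5. Klf2, a Krüppel-like factor induced by shear stress in endothelium, had 380.1 and 475 CPM in class 1 and 165 and 198 CPM in class 2. Klf4, another member of that family, was instead highest in class 7, at 325 and 299.5 CPM against 86.1 and 80.8 CPM in the other classes. Both animals of class 7 exceeded every other library for Klf4, but the share of all genes that did so was not counted. The adjusted p of Klf4 from edgeR was 0.0604. DESeq2, limma and edgeR with DESeq2's size factors called it higher, as they did 4.92%, 1.81% and 1.49% of all genes. Klf6 had 222 and 168 CPM in class 7 and 199 and 178 CPM in class 2. Myc had 13 and 1.48 CPM in class 7, against 95.5 and 98.1 CPM in the others, with an adjusted p of 0.0543 from edgeR. Among the small response proteins, Ier3 was highest in class 5 at 264 and 457 CPM, and Ier5 had 43.8 and 68 CPM over all wells.

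Within the heat shock set edgeR called Dnajb1 in a class, DESeq2 also Hspa1a and Hspa8, and the thinned wells also Hspa1a and Hspa1b. Dnajb1 encodes a J-domain co-chaperone that stimulates HSP70 proteins and is a heat shock factor target. It had 620.1 and 566 CPM in class 1, against 162 and 189 CPM in the other classes. The log2 fold change was 2.53 ± 0.33 with an adjusted p of 0.0169 from edgeR. It had 329.6 and 465 CPM in class 6 and 430.4 and 334 CPM in class 5, and 32.5 and 21 CPM in class 4. Libraries of classes 1, 5 and 6 were at 329.6 CPM or more, and those of classes 2, 3, 4 and 7 at 160.1 CPM or less. The class 1 call held in 14 of 17 tested alternatives (adjusted p 1.21e-06 to 0.193), and was lost with limma and without quadrant 1 or quadrant 2 of animal 1's plate.

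The inducible genes Hspa1a and Hspa1b share 52.7% of Hspa1a's and 55.8% of Hspa1b's stretches of 75 bases (the length of the long read) with each other, so counts of the 2 genes may be split between them. Hspa1a had 1131 and 619 CPM in class 5 and 671 and 476 CPM in class 1, against 132 and 49.7 CPM in class 4. Hspa1b had 208 and 139.7 CPM in class 1 and 65.5 and 43 CPM in class 4. Both genes were lowest in class 4, and neither passed edgeR's test, while DESeq2 called Hspa1a lower in class 4 and higher in class 5. Hspa8, the constitutive member of the same family, had 1023 and 1163 CPM in class 5, 971 and 1080.2 CPM in class 1 and 562 and 594 CPM in class 4, with an adjusted p of 0.0956 from edgeR in class 1. Of its stretches 32.8% recur in other genes, as do 42.8% of those of Hsp90aa1 and 10.4% of those of Dnaja1, so these 3 are uncertain too. Hsp90aa1, the inducible HSP90 gene, had 259 and 200.01 CPM in class 1 and 125 and 109 CPM in class 4, and Hsp90ab1, the constitutive one, 934 and 862 CPM in class 5 and 537 and 522 CPM in class 4. Dnaja1, another J-domain protein, was highest in class 5 at 205 and 205 CPM. Hsph1, an HSP110 chaperone that acts as an exchange factor for HSP70, had 30.4 and 35 CPM over all wells and Dnajb4 48 and 55 CPM. Of the 9 heat shock genes, 7 had their lowest class mean in class 4, and 4 each had their highest in class 1 and in class 5. The shares of all genes with their lowest or highest mean in these classes were not counted.

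Genes of the same pathways outside the 35 were counted in the same fits. Of 35 tested other immediate-early genes, edgeR called 0 in classes 1 to 6 and 2 lower in class 7, where 1.51% of all genes were lower. Those were Id1, at 2.17 and 50.9 CPM against 259 and 433 CPM in the other classes (-3.72 ± 0.79, adjusted p 0.043 from edgeR), and Id3, at 227 and 335 CPM against 903 and 947 CPM (-1.84 ± 0.24, adjusted p 0.00587 from edgeR). Both encode inhibitors of basic helix-loop-helix factors and are widely known as targets of BMP signalling. Of 29 other heat shock and chaperone genes, edgeR called Cryab higher in class 4, where 0.261% of all genes were higher, and 0 in the other 6 tested classes. Cryab, which encodes a small heat shock protein abundant in lens and muscle, had 351 and 516 CPM in class 4 against 187 and 194 CPM in the others (1.40 ± 0.21, adjusted p 0.0395 from edgeR). Class 4 was the lowest class for 7 of the 9 heat shock genes above, a count with no share over all genes beside it. In classes 1 to 7 in turn, an unadjusted p below 0.05 from edgeR was reached by 8, 6, 0, 4, 8, 5 and 9 of the 35 other immediate-early genes and by 5, 3, 1, 3, 2, 2 and 6 of the 29 heat shock genes, where 11.3, 12.5, 7.42, 8.81, 9.19, 11.7 and 15.3% of all genes reached it. DESeq2 called 2, 1, 0, 2, 4, 2 and 7 of the immediate-early list and 3, 0, 0, 2, 2, 1 and 3 of the heat shock list, where it called 3.74, 2.88, 0.577, 3.14, 4.72, 8.4 and 13.4% of all genes. Limma called 0, 0, 0, 0, 0, 0 and 2 and 0, 0, 0, 1, 1, 0 and 1, where it called 0.679, 1.51, 0, 0.539, 0.421, 2.13 and 4.52% of all genes.

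The class differences were also read within the 4 quadrants of each plate. Within quadrants, the AP-1 and Egr sum of class 1 was above that of the other wells in 8 of 8 quadrants (ratios 1.28 to 2.37), that of class 5 in 7 of 7 quadrants with at least 3 of its wells, that of class 4 in 0 of 8 and that of class 7 in 0 of 6. For the heat shock sum the counts were 7 of 8 for class 1 (ratios 0.641 to 2.45), 5 of 7 for class 5, 0 of 8 for class 4 (ratios 0.339 to 0.803) and 1 of 6 for class 7. The exception for class 1 was quadrant 2 of animal 2's plate, with 1795 CPM in its 16 class 1 wells against 2799 CPM in the other wells. Over all wells, quadrant 2 had the lowest sum of each of the 3 sets on both plates. The highest quadrant exceeded it by 1.37 and 1.51 times for the AP-1 and Egr genes and by 1.21 and 1.16 times for the heat shock genes. Quadrant 2 also held the fewest class 1 wells on each plate, 14 and 16. It held the most class 4 wells on animal 1's plate, 17, and the most class 5 wells on animal 2's plate, 16. The part of this class mix in the quadrant sums was not tested. Quadrants are taken from the well names and are not replicates, and these values carry no test. Well barcodes recur between quadrants of a plate, so a quadrant may also have been a separate library. Position and library cannot be told apart here.

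**Figure D4:**
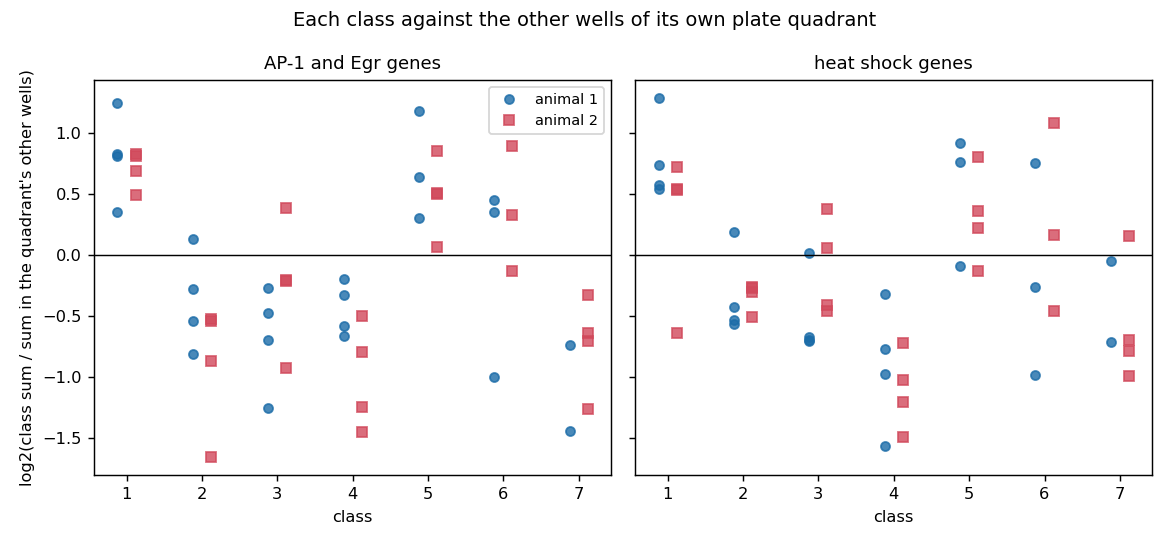
Log2 ratio of the summed CPM of a class to that of the other wells in the same plate quadrant (y axis), for the 7 tested classes (x axis), 1 point per quadrant with at least 3 wells of the class, coloured by animal. For the AP-1 and Egr genes all 8 points of class 1 lie above 0 and all 8 of class 4 below it, and for the heat shock genes 1 of 8 points of class 1 lies below 0.

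Single wells spread widely within each class. Per well, the AP-1 and Egr sum had quartiles of 494 and 8249 CPM in animal 1, a ratio of 16.7, and of 2084 and 9432 CPM in animal 2, a ratio of 4.52. For the heat shock sum the quartiles were 1063 and 3152 CPM in animal 1 (ratio 2.97) and 1439 and 3651 CPM in animal 2 (ratio 2.54). The lower quartile of the AP-1 and Egr sum thus differed more between the animals than the upper quartile did. The median well had 7729 and 8917 CPM in class 1 and 7753 and 6553 CPM in class 5, against 1543 and 4627 CPM in class 3, 2903 and 2135 CPM in class 4, 1347 and 1627 CPM in class 7 and 1986 and 2609 CPM in class 2. By its median well class 4 was above class 7 in both animals, unlike its summed level in animal 2. Over both animals wells ran from 16.1 to 28357 CPM in class 1, from 101 to 20915 CPM in class 5 and from 15.1 to 14532 CPM in class 7, so every pair of these classes overlapped.

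**Figure D5:**
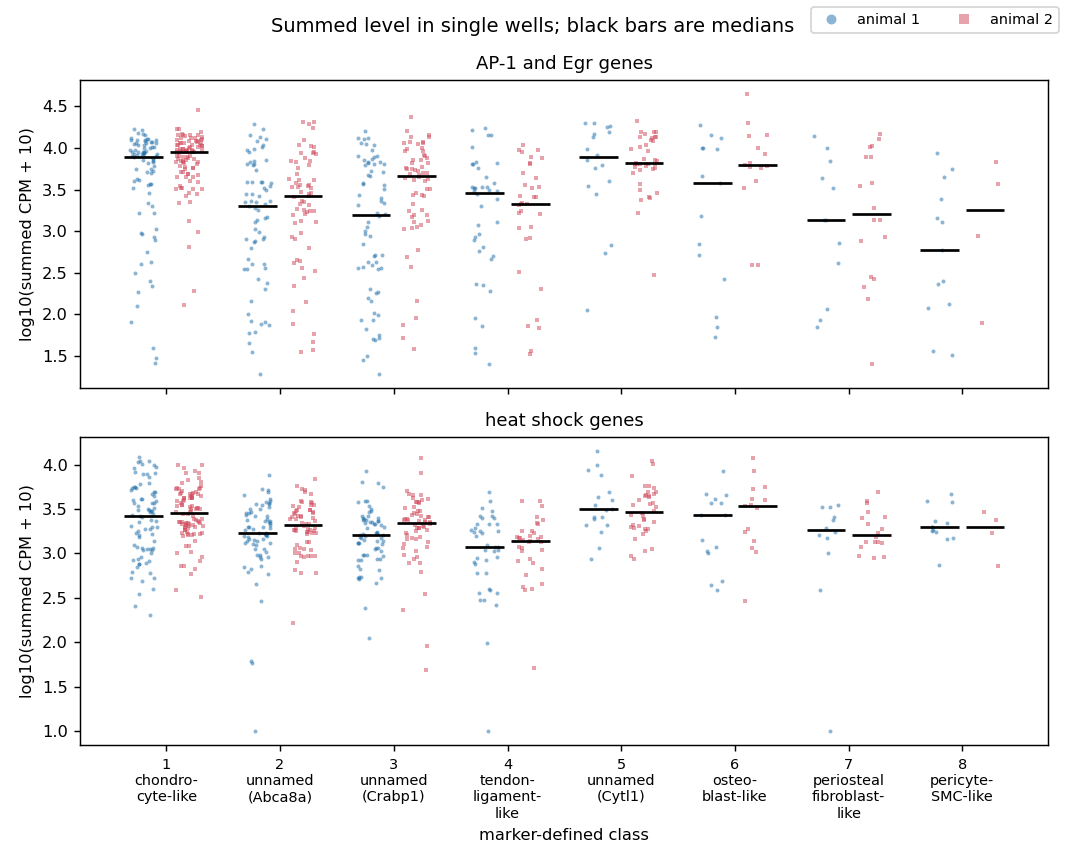
Log10 of the summed CPM plus 10 of the AP-1 and Egr genes (top) and heat shock genes (bottom) in each of 653 wells, by class (x axis) and animal, with the median as a black bar. The AP-1 and Egr sums of class 1 run from 16.1 to 28357 CPM and its heat shock sums from 193 to 11995 CPM, and the classes overlap in both panels.

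Across the 653 wells, after the mean of each class and animal was removed from log2(CPM + 10), the AP-1 and Egr sum correlated with the other immediate-early sum at r = 0.72 and with the heat shock sum at r = 0.41. The value with the heat shock sum was 0.45 in animal 1 and 0.34 in animal 2. With the total count of the well the AP-1 and Egr sum had r = 0.04 and the heat shock sum r = 0.20. With the number of detected genes the heat shock value was 0.25. Wells share a plate, and these correlations are descriptions. Among 31 genes detected in at least 20% of wells, the closest pairs were Fos with Egr1 (0.68), Junb with Egr1 (0.60), Junb with Zfp36 (0.57) and Egr1 with Ier2 (0.56). The median over pairs was 0.27 among the AP-1 and Egr genes, 0.17 among the heat shock genes and 0.15 between the 2 sets. Hspa1a with Hspa1b, whose reads may be shared, was the closest heat shock pair (0.42), and Zfp36 with Dnajb1 the closest between an immediate-early and a heat shock gene (0.32).

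Of 3167 genes outside every list and detected in at least 20% of wells, those whose level over the 653 wells was most like the AP-1 and Egr sum were Sertad1 (r = 0.32), Hes1 (0.31), Gm26532 (0.28), Tob1 (0.25), Cxcl1 (0.23), Clk1 (0.22), Klf10 (0.21), Pnrc1 (0.21), Eif1 (0.20) and Ddx5 (0.20). Most like the heat shock sum were Ptma (0.27), Gm8326 (0.25), H3f3b (0.22), Ifrd1 (0.21), Clk1 (0.21), Eif1 (0.20), Ddx5 (0.20), Tubb2a (0.20), Gdi2 (0.19) and Rps6 (0.19). Clk1, Eif1 and Ddx5 were in both lists of 10, and the medians over all ranked genes were 0.0079 and 0.035.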

How the data were processed

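Single cells were sorted into 384-well plates, cDNA was made by template switching and amplified, and pooled libraries were sequenced as reads of 25 and 75 bases, per the labels' protocols. The deposited table holds whole-number counts per gene and well, and per the submitters' processing notes CASAVA and build mm10 were used. The sources used here do not give the counter, the annotation or whether duplicate reads were collapsed, so a count was not read as 1 molecule. The same 95 well barcodes were used on both plates, and barcodes recur between the quadrants of a plate. Wells were assigned to animals and quadrants by the plate and quadrant in the column name.

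Of 658 wells, the 653 with 500 or more detected genes and no more than 20% of counts from mitochondrial genes were used. No doublet caller was run, since cells were sorted singly. Classes came from Leiden clustering (resolution 1, leidenalg 0.10.2, 20 components, 15 neighbours) of 97 marker genes. A class was named where exactly 1 marker list had at least 3 markers raised (log2 difference of at least 1, in at least 10% of its wells) and held at least 1 of the 10 leading genes. That rule was set after the data were seen, and the members and lists were chosen with earlier results of these data known. Counts were summed per class and animal for the 7 classes with at least 10 wells in each animal (1348154 to 13052899 counts per library). They were tested with edgeR 4.0.16 (R 4.3.3, TMM, filterByExpr, animal as replicate block, 6 residual degrees of freedom), leaving out 114 marker genes. Both animals give every class, so the block comes from the design. CPM values are scaled to the library total, and SDs are over 2 animals. The alternatives used DESeq2 1.42.0, limma 3.58.1 (log2(mean CPM + 1)), thinning to 10000 counts (1 shallower well left out), other clusterings, no block and the removal of each quadrant. All 35 genes are accounted for, and fold changes with errors are printed for those past 0.05. Of the wider lists, genes past 0.05 are named, and so are the 10 genes outside all lists with the highest Pearson r with each of 2 sums. Repeated stretches of 75 bases were counted in GENCODE M21 transcripts.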

Additional observations from a re-analysis of the deposited data

How the results depend on the processing

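Of 190 single-gene values under the alternatives, 144 were counted as kept, 46 kept direction and lost the threshold and 0 reversed. A tested value was kept if it held direction and side of the threshold. Values with 1 animal left out carry no adjusted p, so for these only the direction counted. Of 309 alternative values of the sums, 268 moved by no more than 1 SD between animals. Values with 1 animal left out could not move further than that. A change of sign was counted as reversed only where the main ratio exceeded its SD, and 1 value was. In class 6 the AP-1 and Egr ratio (main 0.17) ran from -0.21 to 0.54 with a quadrant or an animal left out. The heat shock ratio there (main 0.16) ran from -0.14 to 0.47, so both changed sign. The causes of the changes below were not tested, except that fewer wells enter a fit with a quadrant left out. The counts below are for classes in rising order, genes first and then members of the 35. Where a count of members has no count of genes of the same class beside it, its share over all genes is not given. Such a count is not read as a result about the 35.

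DESeq2's Wald test called 327, 297, 70, 316, 450, 822 and 1314 genes in classes 1 to 7, and 8, 2, 6, 8, 5 and 10 members in classes 1, 2, 4, 5, 6 and 7. With DESeq2's size factors in edgeR 0 members were called in class 2, 0 in class 4 and 1 in class 6. Without a filter on low counts 97 genes were called in class 1, and 0 members in class 2 and class 4. Without the replicate block 130 genes were called in class 6, and 0, 0 and 1 members in classes 2, 4 and 5. Limma on mean CPM called 92, 204, 0, 73, 57, 289 and 612 genes in classes 1 to 7 and 1, 3 and 2 members in classes 1, 4 and 6. Wells thinned to 10000 counts gave 301, 255, 64, 152, 126 and 214 genes in classes 1 to 6 and 642 for any difference, with 12, 4, 4, 6, 7 and 8 members in classes 1, 2, 4, 5, 6 and 7 and 14 for any difference.

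Leiden resolution 0.5, which matched classes 1 to 3 only, gave 147, 228 and 1 genes, 10 and 6 members in classes 1 and 2 and 7 for any difference. The log2 ratios of the sums were then 1.04 (AP-1 and Egr), 0.97 (other immediate-early) and 0.83 (heat shock) in class 1, and for heat shock -0.35 in class 2 and -0.60 in class 3. Resolution 1.5 gave 129, 140, 15 and 62 genes in classes 1 to 4 and 373 for any difference, with 7, 0, 2, 1 and 7 members in classes 1, 2, 4, 6 and 7 and 10 for any difference. The AP-1 and Egr ratio was 0.82 in class 1 and -0.67 in class 7, and the heat shock ratio -0.22 in class 2. Giving each well to its highest marker score left no class 7 and called 125, 0, 22, 17 and 34 genes in classes 1, 3, 4, 5 and 6, with 5, 0, 0 and 0 members in classes 1, 2, 4 and 5. The AP-1 and Egr ratios were 0.74, -0.29 and 0.35 in classes 1, 4 and 5, the heat shock ratios -0.20, -0.52 and 0.29 in classes 2, 4 and 5, and the other immediate-early ratios -0.32 and 0.48 in classes 4 and 5. In class 6 that set reversed, to -0.040.

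With the mean of CPM over wells the AP-1 and Egr ratio was 0.49 in class 1 and -0.63 in class 7, and in wells with 1000 or more genes and no more than 10% mitochondrial counts it was -0.68 in class 7. With medians over wells it was 1.21, -1.01, -0.74 and -1.67 in classes 1, 2, 3 and 7, the other immediate-early ratio -0.75, -1.07 and 1.04 in classes 2, 4 and 5, and the heat shock ratio 0.34 in class 1.

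Leaving out a quadrant, or an animal for the values without a test, gave 10 to 119 genes called in class 1, 53 to 115 in class 2 and 0 to 10 in class 3. It gave 24 to 41 in class 4, 0 to 50 in class 5, 37 to 78 in class 6, 301 to 364 in class 7 and 37 to 169 for any difference. Members called were 0 to 6 in class 1, 0 to 1 in class 2, 0 to 2 in class 4, 0 to 5 in class 5, 2 to 7 in class 7 and 1 to 6 for any difference. Without quadrant 1 of animal 1's plate edgeR called 0 members in classes 1 to 6, and class 7 could not be tested. The AP-1 and Egr ratio ran from 0.52 to 0.73 in class 1 and from -0.80 to -0.59 in class 7, the other immediate-early ratio from -0.65 to -0.36 in class 2, and the heat shock ratio from -0.40 to -0.18 in class 2 and from -0.54 to -0.35 in class 7. With 1 animal left out a fit has no residual degrees of freedom.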
